A study of Mus musculus with 59 samples.

Results

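Several genes that every cell uses have a second copy that is transcribed mainly in the male germ line, and 4 such pairs were followed here: Pdha2 with Pdha1, Rpl10l with Rpl10, Pgk2 with Pgk1 and Taf7l with Taf7. The 8 genes were taken by symbol, from 22134 genes with counts, and each was represented by its transcript with the highest mean count. The members were chosen by their counts in the Ehmt2 cross, knockout against control, as seen earlier in these data, so their values in that comparison are given as a description without a test.

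RNA was sequenced from 14 single epiblasts at embryonic day E6.25, dissected on a mixed background from matings between heterozygous parents. The Ehmt2 cross held 4 control epiblasts, labelled G9a+/+, and 4 knockouts, labelled G9a-/-, here called Ehmt2-/-. The Ezh2 cross held 3 controls, labelled Ezh+/+, and 3 knockouts, labelled Ezh-/-, here called Ezh2-/-. The study's methods let controls of either cross be wild type or heterozygous, and describe Ehmt2 mice that were also bred to a ΔPE-Pou5f1-EGFP reporter line. No embryo was treated, each deletion was present in the whole embryo, and every library started from 750 pg of RNA. The study's methods give 4 litters for the Ehmt2 cross and 3 for the Ezh2 cross, so control and knockout epiblasts can share a litter, but the labels do not say which do.

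Ehmt2 encodes G9a, which places dimethylation on lysine 9 of histone H3, and Ezh2 encodes the enzyme of Polycomb repressive complex 2, which methylates lysine 27 of the same histone. Both marks are known for their place at silent genes. Pdha1 and Pdha2 encode the E1 alpha subunit of pyruvate dehydrogenase, the entry of pyruvate into the citrate cycle. Rpl10 and Rpl10l encode a late-joining protein of the large ribosomal subunit, Pgk1 and Pgk2 the glycolytic enzyme phosphoglycerate kinase, and Taf7 and Taf7l a subunit of the general transcription factor TFIID. In spermatocytes the X chromosome is silenced during meiosis, and autosomal copies are known to stand in for X-linked genes there.

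In 3 pairs the somatic gene is X-linked and the testis copy autosomal, and in the fourth it is the reverse. Pdha1, Rpl10 and Pgk1 lie on the X chromosome in GRCm38 with 11, 7 and 11 exons, whereas the chosen transcripts of Pdha2 (chr3:141210004-141212355, minus strand), Rpl10l (chr12:66283379-66284401, minus strand) and Pgk2 (chr17:40207015-40208640, minus strand) have 1 exon each. Taf7l (chrX:134460118-134476490, minus strand) has 13 exons and is itself X-linked, and its somatic partner Taf7 is autosomal with 2 exons. Where the transcripts of a pair could be aligned, 76.0% of the columns were identical for Pdha2 and Pdha1, 84.3% for Rpl10l and Rpl10, 79.5% for Pgk2 and Pgk1, and 66.4% for Taf7l and Taf7. The aligned part covered 50.1% of the Pdha2 transcript, 64.9% of Rpl10l, 76.9% of Pgk2 and 22.9% of Taf7l. For Taf7l the columns include 50 gap bases.

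The starts of the 4 testis copies are shown because these genes are described together and their upstream sequences differ, and that of Rpl10 because it holds the same motif as Rpl10l. RefSeq promoters of GRCm38.p6 were matched for 7 of the 8 genes. Each line gives the last 120 bases before the annotated start site, on the gene's own strand. Capitals mark TCCCGC, the core of the E2F6 site, or CACGTG, an E-box, both searched on either strand over 250 bases upstream. The intervals are chr3:141212356-141212475 for Pdha2, chr12:66284402-66284521 for Rpl10l, chr17:40208610-40208729 for Pgk2, chrX:134476491-134476610 for Taf7l and chrX:74270696-74270815 for Rpl10.
Pdha2: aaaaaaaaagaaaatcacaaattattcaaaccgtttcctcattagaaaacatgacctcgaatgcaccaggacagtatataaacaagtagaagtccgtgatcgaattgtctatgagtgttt
Rpl10l: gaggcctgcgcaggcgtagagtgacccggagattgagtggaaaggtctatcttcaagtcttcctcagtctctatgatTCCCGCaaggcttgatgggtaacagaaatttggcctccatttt
Pgk2: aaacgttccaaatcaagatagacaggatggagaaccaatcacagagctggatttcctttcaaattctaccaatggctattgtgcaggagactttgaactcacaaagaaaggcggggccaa
Taf7l: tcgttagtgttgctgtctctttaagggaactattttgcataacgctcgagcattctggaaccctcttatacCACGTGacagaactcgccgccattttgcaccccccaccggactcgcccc
Rpl10: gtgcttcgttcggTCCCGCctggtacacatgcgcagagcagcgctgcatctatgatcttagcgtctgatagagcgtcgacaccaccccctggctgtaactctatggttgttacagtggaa

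TCCCGC was present 43 bases upstream of the Rpl10l start and 107 bases upstream of the start of its somatic partner Rpl10, and CACGTG was present 49 bases upstream of Taf7l. Neither motif lay in the 250 bases before Pdha2, Pgk2, Pdha1 or Pgk1. Among 32851 promoters, 16.9% held TCCCGC and 6.02% held CACGTG, so these matches are a description of the windows only. Upstream of the 3 autosomal testis copies there were 4 CpG dinucleotides for Pdha2, 8 for Rpl10l and 3 for Pgk2. Their X-linked partners had 15, 13 and 17, Taf7l had 14, and the median over all promoters was 6.

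Because a paralog can take reads that belong to its partner or to a pseudogene, every 40-base window of each transcript, the length to which reads were trimmed, was looked up in the genome. No window of any of the 8 transcripts was identical to its partner. Allowing 2 mismatches, 28 of 984 Rpl10l windows matched Rpl10 and 9 of 2313 Pdha2 windows matched Pdha1. All windows of Pdha2 and Pgk2 occurred once in the genome. In contrast, 35.1% of the Rpl10l windows, 94.1% of the Rpl10 windows and 93.5% of the Pgk1 windows occurred more than once, and the values of these 3 genes are uncertain to that extent, since how such reads were counted is not given in the sources used here. Rpl10 also contains Snora70 on its own strand, and Pdha1 and Taf7 overlap genes on the opposite strand, which cannot be separated where counting ignored strand.

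**Figure D1:**
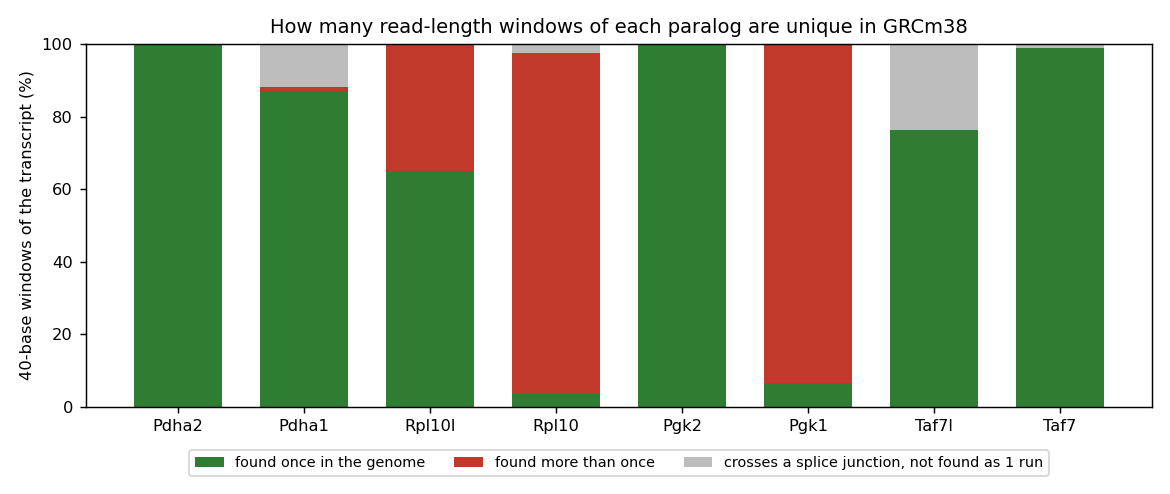
Percentage of the 40-base windows of each transcript that occur once in GRCm38 (green), more than once (red), or cross a splice junction and so are not found as 1 run (grey). Pdha2 and Pgk2 are unique throughout, whereas 94.1% of Rpl10 and 93.5% of Pgk1 windows occur more than once.

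Levels are given as counts and as CPM, the count divided by the library's total after scaling within its cross. The authors counted each read for every transcript it fell in, so totals over transcripts ran from 30161171 to 68464895 per epiblast and exceed the number of reads. The 2 crosses were scaled separately, so levels set across them are not a test. The targeted genes were lower in the knockouts: Ehmt2 lay at 3.21 to 9.44 CPM in Ehmt2-/- epiblasts against 10.2 to 32.7 in controls, and Ezh2 at 11.8 to 16.5 CPM in Ezh2-/- epiblasts against 53.3 to 111.8. In bulk RNA, fewer cells of a type and less RNA per cell cannot be told apart.

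Pdha2 was close to silent in control epiblasts and present in every Ehmt2-/- epiblast. The controls of the Ehmt2 cross held 0, 1, 1 and 0 counts, and the Ehmt2-/- epiblasts 139, 264, 306 and 343. In CPM the knockouts stood at 3.88, 7.51, 7.80 and 5.52, a mean of 6.18 ± 1.83 (SD, n = 4), against 0.0118 ± 0.0138 (SD, n = 4) in controls. The groups did not overlap, and the lowest knockout was far above the highest control. Summed over each group, the 1052 knockout counts against 2 control counts made a 556-fold ratio with an exact 95% interval of 153 to 4595, which covers counting error only. The fitted log2 fold change was 8.79, with a standard error (SE) of 0.60 derived from the F statistic of the fit. A fit with DESeq2 gave 9.12 with a larger SE of 1.07.

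Pdha1, which carries the same activity in somatic cells, differed far less. Its controls stood at 57.3, 49.4, 55.5 and 50.2 CPM and the Ehmt2-/- epiblasts at 60.9, 72.5, 64.2 and 65.7 CPM. Every knockout lay above every control, with a log2 fold change of 0.31 (SE 0.11). Per kilobase of transcript, Pdha2 held 0 to 0.0571% of the pair in controls and 7.16, 11.1, 12.8 and 9.24% in Ehmt2-/- epiblasts. Pdha2 thus stayed the minor transcript of the pair in all 4 knockouts.

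Rpl10l differed from Pdha2 in that it was measured in every control. Counts were 46, 18, 53 and 106 in controls and 736, 523, 666 and 1321 in Ehmt2-/- epiblasts. These correspond to 1.12, 0.380, 1.39 and 1.91 CPM against 20.6, 14.9, 17.0 and 21.3 CPM, with no overlap. The means were 1.2 ± 0.64 and 18.4 ± 3.0 CPM (SD, n = 4 each), the fitted log2 fold change was 4.00 (SE 0.35), and the ratio of summed counts was 15.4-fold (exact 95% interval 13.4 to 17.7, counting error only).

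Rpl10 itself was the highest of the 8 genes per kilobase of transcript in every epiblast, at 714 to 1060 CPM per kilobase. It stood at 601, 595, 586 and 847 CPM in controls and 697, 634, 633 and 606 CPM in Ehmt2-/- epiblasts, and the groups overlapped. Its log2 fold change was -0.01 (SE 0.11), or -0.34 (SE 0.11) once trophoblast marker level entered the fit. Rpl10l made up 0.0499 to 0.185% of the pair per kilobase in controls and 1.80 to 2.67% in Ehmt2-/- epiblasts, so the share of the testis copy stayed small in every epiblast.

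Pgk2 was at 0 counts in all 4 controls and at 2, 9, 44 and 24 counts in the Ehmt2-/- epiblasts. The knockouts ranged from 0.0558 to 1.12 CPM, which is a wide spread for 4 embryos of 1 genotype, with replicate 3 highest and replicate 1 close to the detection limit. Against a floor of 3 counts over the control group, the summed knockout counts were at least 27.8-fold higher. Pgk2 did not pass the filter on low counts and has no fitted value. It lies on chromosome 17, as does Ehmt2 itself, and an effect of linkage to the deleted allele was not tested. Pgk1 overlapped between the groups, at 334, 477, 395 and 594 CPM in controls and 353, 232, 251 and 619 CPM in knockouts, with a log2 fold change of -0.38 (SE 0.16). Replicate 4 was the highest of its group for Pgk1 in both genotypes. Pgk2 made up at most 0.50% of the pair per kilobase.

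Taf7l was at 0 counts in 3 controls of the Ehmt2 cross and at 6 in the fourth, and at 7, 7, 12 and 47 counts in the Ehmt2-/- epiblasts. In CPM these were 0, 0, 0 and 0.108 against 0.195, 0.199, 0.306 and 0.757. The groups did not overlap, although the lowest knockouts lay close to the highest control, and in each genotype replicate 4 was highest. Summed counts gave a 12.9-fold ratio (exact 95% interval 5.63 to 36.2, counting error only). Taf7l did not pass the filter in this cross. Taf7 stood at 36.5 to 43.4 CPM in controls and 45.1 to 49.6 CPM in Ehmt2-/- epiblasts, also without overlap, with a log2 fold change of 0.25 (SE 0.11).

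**Figure D2:**
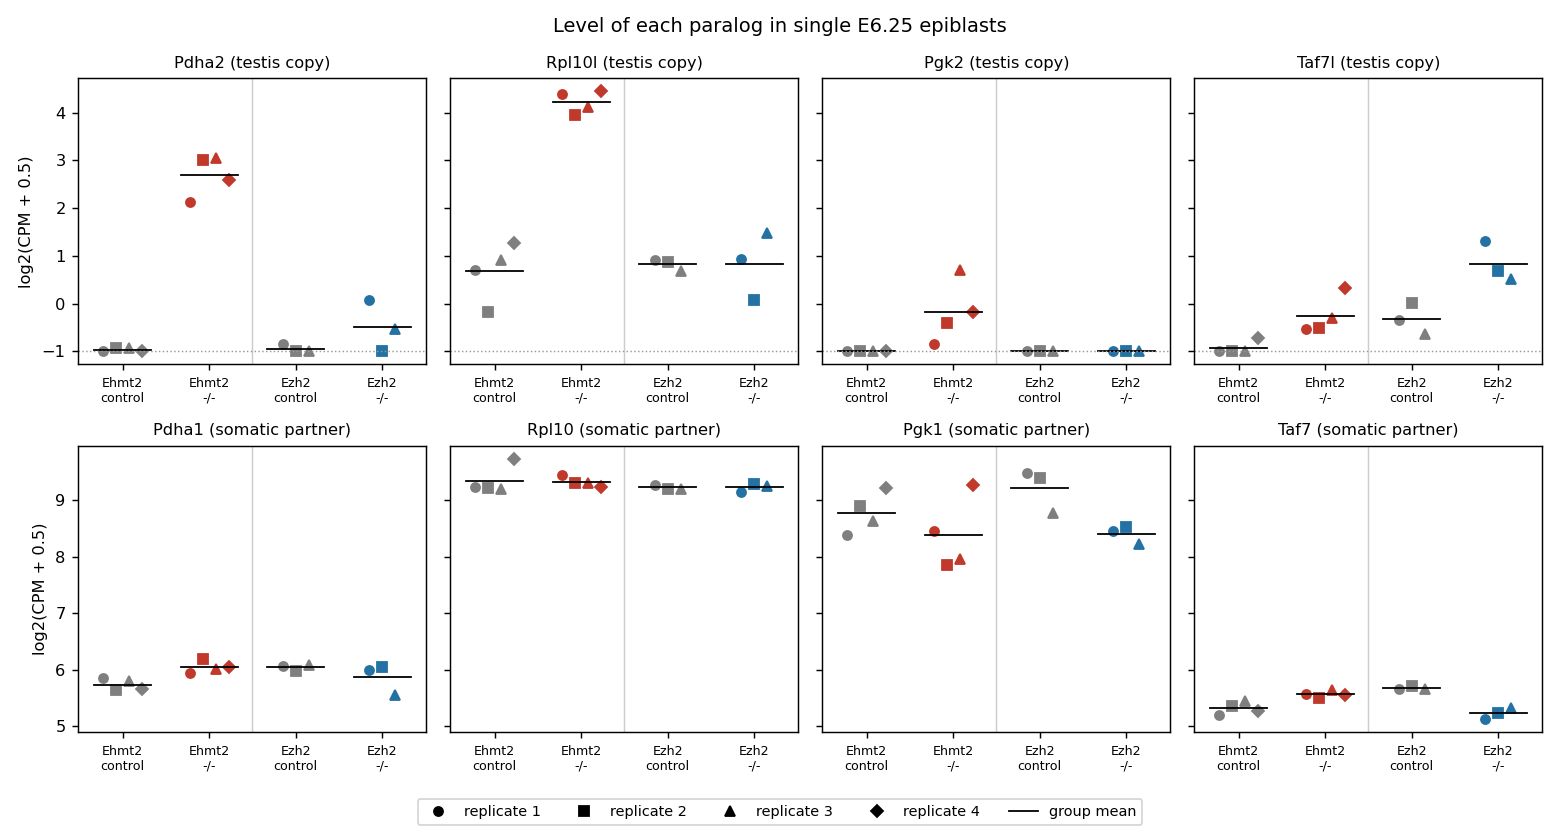
Level of each gene on the log2(CPM + 0.5) scale (y axis) in each epiblast (points, shaped by replicate number), by cross and genotype (x axis), with the group mean as a line and 0 counts at the dotted line. The Ehmt2-/- points of Pdha2 and Rpl10l stand apart from their controls, whereas the Ezh2-/- points stand apart from controls among the testis copies for Taf7l only.

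Set side by side, all 4 testis copies and 2 of the 4 somatic partners, Pdha1 and Taf7, lay higher in every Ehmt2-/- epiblast than in every control. Among the 13749 genes tested in this cross, 3.59% did so, and 2.63% lay lower in every knockout. Of the testis copies only Pdha2 and Rpl10l passed the filter. Since the members were chosen with this contrast known, nothing is read from these counts. On the log2 ratio of testis copy to partner, with 0.5 CPM added to both, the Ehmt2-/- mean minus the control mean was 3.35 for Pdha2 over Pdha1 (SD 0.12 in controls and 0.36 in knockouts, n = 4 each) and 3.57 for Rpl10l over Rpl10 (SD 0.50 and 0.24). It was 1.21 for Pgk2 over Pgk1 (SD 0.36 and 1.02) and 0.42 for Taf7l over Taf7 (SD 0.20 and 0.40), and in these pairs the ratios of knockouts and controls overlapped. The added 0.5 CPM sets the control ratio wherever the testis copy is at 0, so these differences understate low genes.

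**Figure D3:**
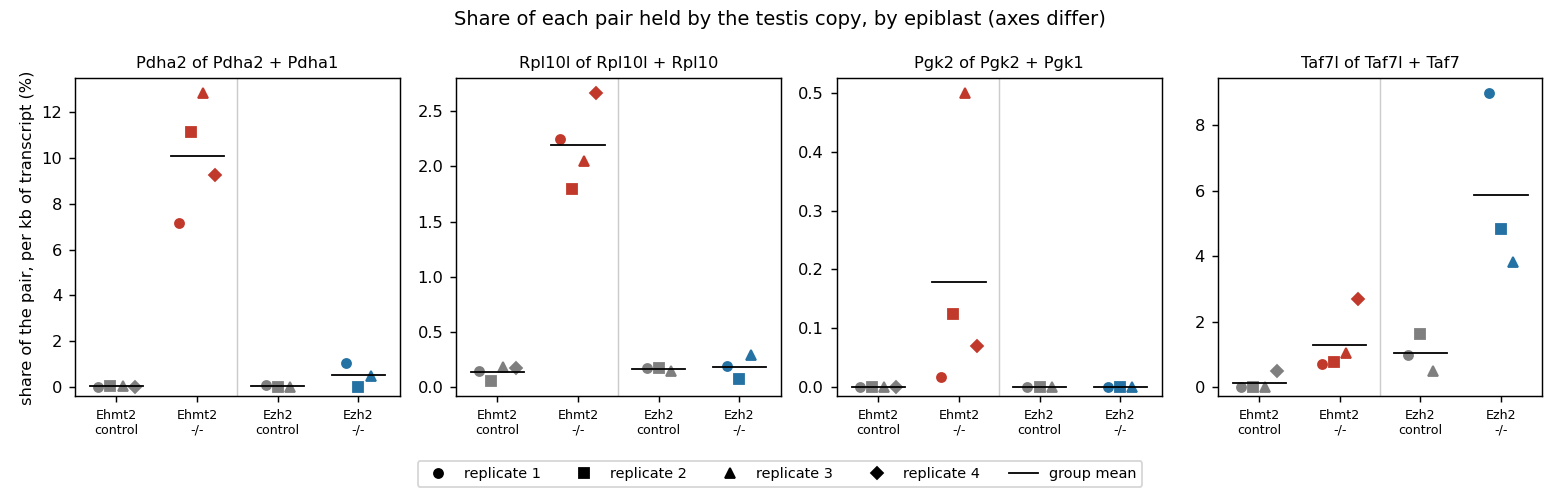
Share of each pair held by the testis copy, per kilobase of transcript (y axis, percent, with a scale of its own in each panel), in each epiblast (points, shaped by replicate number) by cross and genotype (x axis), with the group mean as a line. The Pdha2 share is 7.16 to 12.8% in Ehmt2-/- epiblasts, and the Taf7l share is 3.82 to 8.98% in Ezh2-/- epiblasts.

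The Ezh2 cross showed which of these differences also appeared when the Polycomb enzyme was absent. A gene was called where its adjusted p was under 0.05 and its log2 fold change over 1.4 either way. Here edgeR called 0 genes higher (0% of 14010 tested) and 1 lower (0.00714%). At an unadjusted p under 0.05 with the same fold there were 276 genes higher and 46 lower, and DESeq2 called 153 transcripts higher and 25 lower. No tested member was called by edgeR or by DESeq2, although Pgk1 passed the adjusted p threshold in DESeq2 and missed the call by its fold. In this cross 7.71% of tested genes lay higher and 6.47% lower in every knockout than in every control. Taf7l was the only testis copy that lay higher in every Ezh2-/- epiblast, and Pgk1 and Taf7 lay lower in every one.

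Taf7l counts were 10, 17 and 5 in controls and 62, 40 and 34 in Ezh2-/- epiblasts, or 0.289, 0.501 and 0.146 CPM against 1.99, 1.11 and 0.923 CPM. The means were 0.312 ± 0.179 and 1.34 ± 0.57 CPM (SD, n = 3 each), with a fitted log2 fold change of 2.09 (SE 0.66, edgeR adjusted p = 0.566). Summed counts gave a 4.19-fold ratio (exact 95% interval 2.84 to 6.37, counting error only). Taf7l is also on the study's own list for this cross, so its direction here is not independent evidence. Taf7 stood at 50.2, 51.8 and 50.3 CPM in controls and 34.5, 37.3 and 39.7 CPM in knockouts, a log2 fold change of -0.45 (SE 0.12, edgeR adjusted p = 0.491). The Taf7l share of the pair per kilobase was 0.976, 1.63 and 0.494% in controls and 8.98, 4.82 and 3.82% in Ezh2-/- epiblasts.

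Pdha2 and Rpl10l did not separate the genotypes in the Ezh2 cross. Pdha2 had 2, 0 and 0 counts in controls and 17, 0 and 7 in Ezh2-/- epiblasts, so 1 of the 3 knockouts was at 0 like 2 of the controls. The summed ratio was 11.8-fold with an exact 95% interval of 2.94 to 103 for counting error, and the exact two-sided permutation test over epiblasts gave p = 0.4. Rpl10l stood at 1.39, 1.33 and 1.11 CPM in controls and 1.41, 0.553 and 2.28 CPM in knockouts, with a log2 fold change of 0.15 (SE 0.55, edgeR adjusted p = 0.973). The 3 knockouts spread both above and below the controls. Pgk2 was at 0 counts in all 6 epiblasts, which limits it to 3 counts summed over the 3 libraries of each group.

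Among the other somatic partners, Pgk1 lay at 715, 674 and 438 CPM in controls and 350, 369 and 299 CPM in Ezh2-/- epiblasts, with a log2 fold change of -0.85 (SE 0.17) that was not called (edgeR adjusted p = 0.320, unadjusted p = 0.000476). DESeq2 gave it -0.85 with an adjusted p of 0.000395, so that there only the fold threshold kept it from a call. Pdha1 gave -0.17 (SE 0.15, adjusted p = 0.876) and Rpl10 0.00 (SE 0.09, adjusted p = 0.999). An exact permutation test of 3 against 3 epiblasts cannot go below p = 0.1. On the pair ratio, the Ezh2-/- mean minus the control mean was 1.61 for Taf7l over Taf7 and 0.82 for Pgk2 over Pgk1, each with exact permutation p = 0.1, or 0.2 adjusted over the 4 pairs. With Pgk2 at 0 throughout, the latter ratio holds the level of Pgk1 alone. It was 0.64 for Pdha2 over Pdha1 (exact p = 0.3, adjusted 0.4) and 0.00 for Rpl10l over Rpl10 (exact p = 1, adjusted 1). Whether a testis copy responded differently in the 2 crosses was not tested.

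The next values concern genes with the same kinds of role, in lists drawn up by pathway with earlier results of these data known. Of 26 further testis paralogs of widely used genes, 14 passed the filter in the Ehmt2 cross and none was called by edgeR, where 0.786% of tested genes were called higher and 0.0655% lower, with a median log2 fold change of 0.38 beside 0.01 over all tested genes. The pair with the largest values were Pabpc6, a poly(A)-binding protein copy, at 2.04 (SE 1.26, adjusted p = 0.570), and Cyct, the testis cytochrome c, at 2.01 (SE 0.52, adjusted p = 0.127). Cyct rested at 2.11 ± 2.03 CPM in controls and 7.10 ± 2.36 in Ehmt2-/- epiblasts (SD, n = 4 each), without overlap. DESeq2 called 1 of the 14 higher, Cyct at 2.02 (SE 0.48, adjusted p = 0.00246), and edgeR without control replicate 1 called Pabpc6 at 6.2 (SE 0.90, adjusted p = 0.0259). In the Ezh2 cross 15 were tested and edgeR called none, with a median of -0.01 beside 0.03 over all genes, and the largest values were Cyct at 3.09 (SE 1.16, adjusted p = 0.623) and Nxf2, an X-linked RNA export factor copy, at 2.12 (SE 1.14, adjusted p = 0.778). DESeq2 called 1 of the 15 higher, the ADP/ATP carrier copy Slc25a31, named after its values were seen, at 1.78 (SE 0.48, adjusted p = 0.0371), where edgeR gave 1.78 (SE 0.45, adjusted p = 0.437). Of the 25 somatic partners of these genes none was called by edgeR or DESeq2 in either cross, with medians of -0.0046 and -0.08. Mov10 and Gk had the largest values in the Ehmt2 cross, at 0.68 (SE 0.24) and -0.66 (SE 0.52), and Mov10 and Cetn2 in the Ezh2 cross, at 0.60 (SE 0.24) and -0.58 (SE 0.35).

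Around Pdha1, none of the 11 other genes of the pyruvate dehydrogenase complex and its kinases and phosphatases was called in either cross. Over all tested genes, 0.786% were called higher and 0.0655% lower in the Ehmt2 cross, and 0% and 0.00714% in the Ezh2 cross. The same shares stand beside the lists that follow. Their median log2 fold change was -0.08 in the Ehmt2 cross, with Pdk4 at 1.59 (SE 0.76) and Pdk2 at -0.56 (SE 0.37), both kinases that inhibit the complex. In the Ezh2 cross it was -0.15, with Pdk4 at -1.56 (SE 0.78) and the phosphatase Pdp1 at -1.03 (SE 0.36). Around Pgk1, none of 8 glycolytic genes was called in either cross, and all 8 had a fold change below 0 in both, with medians of -0.32 and -0.35. Eno1, the enolase, had an adjusted p of 0.0366 in the Ehmt2 cross but a log2 fold change of only -0.45 (SE 0.08), and the triosephosphate isomerase Tpi1 stood at -0.51 (SE 0.15, adjusted p = 0.185). In the Ezh2 cross Gpi1, the glucose-6-phosphate isomerase, and Tpi1 were both at -0.49 (SE 0.12 and 0.16).

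Around Rpl10, none of 8 genes that mature the large ribosomal subunit was called, with medians of -0.07 in the Ehmt2 cross and 0.03 in the Ezh2 cross. Efl1, a GTPase of that step, stood at -0.43 (SE 0.18) and Nmd3, its export adaptor, at 0.34 (SE 0.14) in the Ehmt2 cross. In the Ezh2 cross the values were 0.38 (SE 0.32) for Efl1 and 0.33 (SE 0.12) for Lsg1. Around Taf7, 15 of 16 further TFIID subunits and TBP relatives were tested and none was called, with medians of 0.12 and -0.03. Taf9b and Taf8 were highest in the Ehmt2 cross at 0.58 (SE 0.25) and 0.42 (SE 0.19), and Taf9 and Taf6 were at -0.47 (SE 0.16) and -0.29 (SE 0.14) in the Ezh2 cross.

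**Figure D4:**
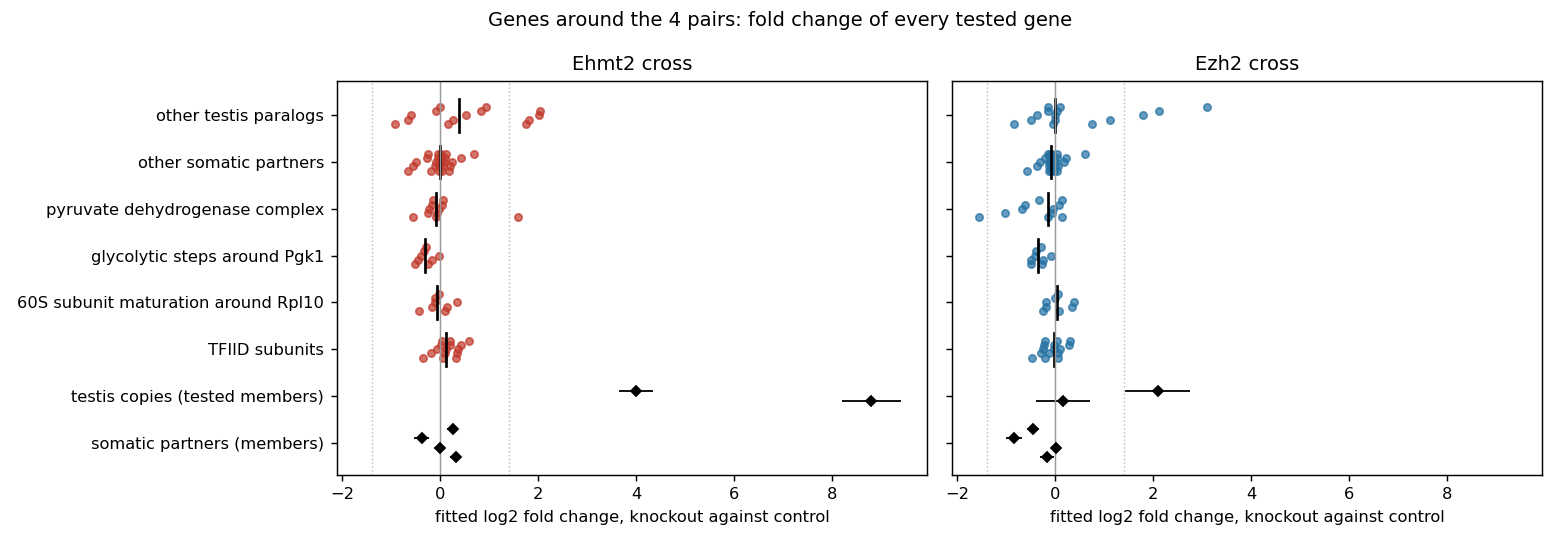
Fitted log2 fold change of every tested gene (points; x axis) in each list (y axis), with the list median as a bar, and of the tested members with their SE (diamonds), in the Ehmt2 cross (left) and the Ezh2 cross (right). Dotted lines mark a log2 fold change of 1.4 either way; no gene of the 6 lists was called by edgeR with all epiblasts in either cross.

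For each testis copy the genes with the most similar profile over the 14 epiblasts were found as those with the smallest root mean square difference on the log2(CPM + 0.5) scale, centred within each cross. Nearest to Pdha2 were Cd3e (0.31), Magea10 (0.38) and Nxf3 (0.45), where a gene with no variation at all would stand at 1.42. Nearest to Rpl10l were Gtsf1 (0.46), Naa11 (0.49) and Pdha2 itself (0.50), where a flat gene would stand at 1.4. For Pdha2 and Rpl10l the profile is mainly the Ehmt2 difference on which they were chosen. Their neighbours share that difference because of how they were found, so the levels that follow are a description. Cd3e, which T cells need for antigen signalling, rested at 0.0874 CPM in Ehmt2 controls and 7.62 CPM in Ehmt2-/- epiblasts, and Gtsf1, a factor of the piRNA pathway, at 0.262 and 4.32 CPM. Naa11 is a testis copy of the acetyltransferase gene Naa10 and stood at 0.600 and 13.1 CPM. The profiles of Pgk2 and Taf7l varied less, so their neighbours are weakly chosen: Wdfy4 (0.25), Jph1 (0.28) and Tyw3 (0.28) for Pgk2 with a flat gene at 0.43, and Frk (0.24), Has2 (0.29) and Pcdh17 (0.31) for Taf7l with a flat gene at 0.54.

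Levels of other cell types were read in the same libraries. All 6 epiblast markers were present in each group, with summed levels of 1368 to 2045 CPM in Ehmt2-/- epiblasts and 2319 to 2675 CPM in their controls. Most of this sum was Dnmt3b, with means of 1236 CPM in Ehmt2-/- epiblasts and 1745 CPM in controls. Only Sox2 had a higher mean in knockouts, at 22.9 against 18.7 CPM, and none of the 6 was called. The 8 markers of extraembryonic ectoderm, the trophoblast tissue that borders the epiblast, had a mean log2(CPM + 0.5) of 3.26, 2.29 and 2.48 in Ehmt2-/- replicates 1 to 3, of -0.25 in replicate 4, and of 0.06 to 0.91 in controls. Their summed level was 16.4 to 225 CPM in Ehmt2-/- epiblasts and 22.8 to 123 CPM in controls, and 2 of the 7 tested were called higher. In Ehmt2-/- replicate 4, where the 8 markers were lowest, Pdha2 was at 5.52 CPM and Rpl10l at 21.3 CPM, within or above the range of the other knockouts. That is 1 epiblast, and whether trophoblast tissue adds to the levels of these members was not tested. In the Ezh2 cross the same markers stood at 0.55 to 1.86 in knockouts and 0.26 to 0.95 in controls, and with their level as a covariate the log2 fold change of Taf7l was 1.72 (SE 0.90).

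Markers of visceral endoderm, the outer layer that wraps the epiblast, set 2 libraries of the Ezh2 cross apart. Their summed level was 872 CPM in Ezh2-/- replicate 1 and 396 CPM in control replicate 2, against 6.90 to 11.3 CPM in the other 4. These 2 epiblasts also had the highest Taf7l level of their groups, at 1.99 and 0.501 CPM. Without Ezh2-/- replicate 1 the log2 fold change of Taf7l was 1.69 (SE 0.80), and without control replicate 2 it was 2.60 (SE 0.79). In the remaining epiblasts Taf7l stood at 1.11 and 0.923 CPM in knockouts and 0.289 and 0.146 CPM in controls.

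Spermatid markers were low throughout, and none passed the filter on low counts. Of 8, the protamine Prm2 and the transition protein Tnp1 had no entry in any epiblast. Counting these as 0, 6 were at 0 in all Ehmt2 controls and 4 in all Ehmt2-/- epiblasts. The sum ran from 0.0262 to 0.216 CPM over the controls, and reached 0.531, 1.11 and 0.408 CPM in Ehmt2-/- replicates 1 to 3. Spaca1 averaged 0.0411 CPM over controls but 0.343 CPM over knockouts, with at most 32 counts, and Acrv1 averaged 0.0772 and 0.148 CPM. In Ehmt2-/- replicate 4 all 6 markers with entries were at 0, beside 343 counts of Pdha2. Sums in the Ezh2 cross went the other way, from 0.265 to 0.984 CPM for controls to 0.0815 to 0.0964 CPM for knockouts. The 5 meiotic markers summed to 13.1 to 19.7 CPM in Ehmt2 controls and 19.2 to 37.0 CPM in Ehmt2-/- epiblasts, ranges that overlap. In the Ezh2 cross they summed to 21.3 to 23.4 CPM in controls and 27.2 to 33.3 CPM in Ezh2-/- epiblasts, without overlap. None of the 5 was called by edgeR in either cross. In the Ehmt2 cross their means did not move together. Ddx4, a germ cell RNA helicase, stood at 4.29 CPM in controls and 13.4 in knockouts, and Dazl and Sycp1 were also higher. Sycp3 was lower, at 8.99 and 6.85 CPM, as was Hormad1, at 0.781 and 0.567 CPM. DESeq2 called Ddx4 at 1.44 (SE 0.34, adjusted p = 0.00196).

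Because Pdha1, Rpl10, Pgk1 and Taf7l are X-linked, the Y-linked genes Ddx3y, Eif2s3y, Kdm5d and Uty were read as well. They were high in all 3 Ezh2-/- epiblasts, at a mean log2(CPM + 0.5) of 3.96 to 4.27, but in only 1 of their 3 controls, replicate 2 at 4.16, and were near 0 in the other two. In that control Taf7l was at 0.501 CPM, below the 0.923 CPM of the lowest Ezh2-/- epiblast, and Pgk1 was at 674 CPM, above the 369 CPM of the highest. The same control had the highest Taf7l of its group, beside 0.289 and 0.146 CPM, and high visceral endoderm markers. Y-linked counts largely went with genotype in this cross, and an effect of sex on Taf7l or Pgk1 was not tested. In the Ehmt2 cross the Y-linked genes were high in control replicates 2 and 4 and in knockout replicate 4. All knockouts lay above all controls for Pdha2 and Rpl10l, so a split by Y-linked counts can show nothing further. An effect of sex on these genes was not tested.

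**Figure D5:**
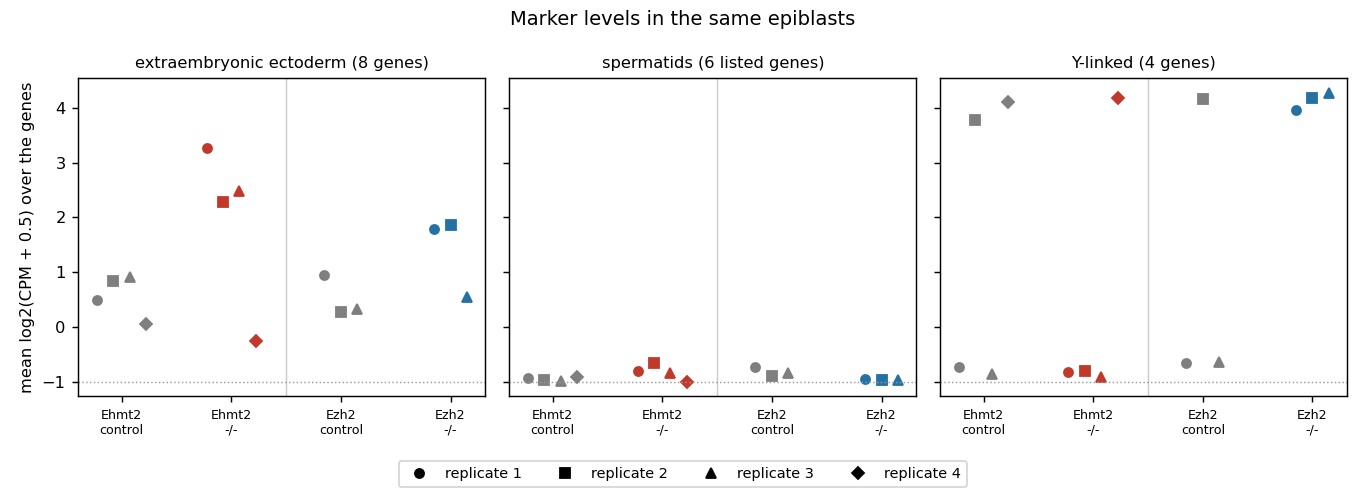
Mean log2(CPM + 0.5) over the markers of extraembryonic ectoderm, spermatids and the Y chromosome (y axis) in each epiblast (points, shaped by replicate number) by cross and genotype (x axis), with 0 counts at the dotted line. Ehmt2-/- replicate 4 has the lowest extraembryonic ectoderm level of its group, at -0.25, and Y-linked genes are high in all 3 Ezh2-/- epiblasts but 1 of their controls.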

How the data were processed

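Counts per Ensembl transcript were deposited for 14 epiblasts. Per the study's methods, the authors amplified the RNA, trimmed reads to 40 nt, aligned them with TopHat2 to GRCm38/mm10 and made these counts with HTSeq. The other assays of the series were not analysed here. Transcripts were named from GENCODE (70021 of 72515 matched). Unaligned reads, 12.6% and 13.3% of the rows' total in the replicate 4 libraries of the Ehmt2 cross, were left out. The members and gene lists were chosen with earlier results of these data known. Genes named are the members, the targeted genes, called genes of each list or else the 2 with the largest fold change, the 3 most similar profiles and the markers.

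Each cross was fitted with edgeR 4.0.16 (R 4.3.3): TMM scaling, the filterByExpr filter, quasi-likelihood tests over 49872 and 50855 transcripts, with a term for replicate 4 in the Ehmt2 cross, and Benjamini-Hochberg adjustment. A call needed an adjusted p under 0.05 and an absolute log2 fold change over 1.4. DESeq2 1.42.0, other scalings, filters, pseudocounts and left-out epiblasts were alternatives. The code was tested on simulated data. Percentages of genes use 1 transcript per gene. Intervals are exact at 95%, and intervals and floors cover counting error only. The epiblasts came from 14 separate embryos. Replicates were not duplicates: the lowest chi-square per degree of freedom between replicates was 17.7.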

Additional observations from a re-analysis of the deposited data

Results flagged for a closer look

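In groups of 4 epiblasts, 3 values stood apart from the others of their group by the gap to the nearest value relative to the whole range. All 3 were in replicate 4 of the Ehmt2 cross. Chance alone marks about 1 group in 20 for continuous values, a rate that does not apply where the other values are all 0. Rpl10 was at 847 CPM in control replicate 4, against 586 to 601 CPM in the other controls. Taf7l was at 0.108 CPM in control replicate 4 and at 0 in the others, so that any value above 0 there would have been flagged. The log2 ratio of Taf7l to Taf7 was -5.23 in knockout replicate 4, against -6.10 to -5.96 in the other knockouts.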

How the results depend on the processing

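The direction of the fitted difference held for Pdha2 (log2 fold change 8.40 to 10.3), Pdha1, Rpl10l (3.57 to 4.19), Pgk1 and Taf7 in the Ehmt2 cross under all 17 alternatives, and for Pdha1, Pgk1, Taf7l (1.69 to 2.60) and Taf7 in the Ezh2 cross under all 13. Rpl10 in the Ehmt2 cross, at -0.01, stayed below 0 in 14 of 17, with -0.34 (SE 0.11) with the extraembryonic ectoderm covariate. It was 0.14 in the other 3, which were replicates 1 to 3 only and either replicate 4 epiblast left out. Those 3 of the 17 rest on the same contrast of replicates 1 to 3, since the replicate 4 term absorbs a lone replicate 4 epiblast. In the Ezh2 cross Rpl10l, at 0.15, was -0.039 with the replicate block and reached -0.38 with an epiblast left out (-0.38 to 0.53). Rpl10 there, at 0.00, was -0.016 with 1 transcript per gene, -0.0095 with the extraembryonic ectoderm covariate and -0.0041 without the filter, and -0.029 to 0.038 with an epiblast left out. The Rpl10l over Rpl10 ratio of that cross was -0.044 with 0.1 CPM added and -0.31 to 0.41 with an epiblast left out. With 0.1 CPM added, the Ehmt2 ratio differences were 5.46 for Pdha2, 4.01 for Rpl10l, 2.48 for Pgk2 and 1.55 for Taf7l, and with 1 CPM they were 2.48, 3.20, 0.88 and 0.15. With an epiblast left out these differences ranged from 3.22 to 3.50, 3.32 to 3.70, 0.77 to 1.51 and 0.23 to 0.52.

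Counts over all transcripts moved more. The Ehmt2 cross called 220 higher and 29 lower. The counts were 112 and 12 with 1 transcript per gene, 544 and 192 with DESeq2, 346 and 251 with the extraembryonic ectoderm covariate, 51 and 1 without the replicate 4 term, 395 and 65 without the filter, 391 and 45 with replicates 1 to 3 only, and 94 to 399 and 7 to 48 with an epiblast left out. The 399 and 48 came without control replicate 4, which again leaves the contrast of replicates 1 to 3. The Ezh2 cross called 0 higher and 6 lower. The counts were 153 and 25 with DESeq2, 20 higher without the filter, and 0 lower both with 1 transcript per gene and with the covariate. With an epiblast left out they were 0 to 21 and 0 to 6, with 21 higher without control replicate 2. The cause was not tested.

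With replicate numbers as a block, 99 transcripts were called higher and 6 lower in the Ehmt2 cross and 3 higher and 7 lower in the Ezh2 cross. The labels do not say what a number shares. In their deviations from the group means, same-numbered epiblasts of the Ehmt2 cross correlated at 0.05 to 0.37, with 3 of 4 numbers over 0.1. Differently numbered ones there had a mean of -0.05. Same-numbered epiblasts of the Ezh2 cross correlated at -0.11 to 0.16. The numbers were not taken as pairs in the main fit because the labels do not define them, although in the Ehmt2 cross these correlations do not speak against pairs. Epiblasts can share a litter, and no fit here takes litters into account. In all, 3 of 4 controls and 2 of 4 knockouts of the Ehmt2 cross, and 1 of 3 of each genotype in the Ezh2 cross, correlated best with their own number. The Pdha2 over Pdha1 difference is 3.35 with or without the block, since differences within numbers have the same mean. Low depth limits Pgk2 and Taf7l most, with at most 44 and 62 counts in an epiblast.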
